A study of Mus musculus with 8 samples.

Results

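The genes described here are the 10 that encode the signal-transducing chains of the T-cell receptor complex (Cd3d, Cd3e, Cd3g and Cd247), the coreceptor chains (Cd8a, Cd8b1 and Cd4), the kinases that act first when the receptor is engaged (Lck and Zap70) and the early activation antigen Cd69. Every non-control probe whose gene name on the array was one of these was taken, which gave 21 probes among 56567. Of these, 15 probes were bright enough to test among 31912 tested probes, and each of the 10 genes had at least 1 tested probe. The tested probes carried 21497 gene names in all.

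RNA came from tumors of CT26, a colon carcinoma line of BALB/c mice, grown under the skin of the flank from 500000 implanted cells in immunocompetent female mice, for which the methods give an age of 6 to 10 weeks. Treatment began at tumor volumes of 100 to 200 mm3 and lasted 2 weeks, with vehicle, with TP-16 (75 mg/kg orally, daily), with anti-PD-1 antibody (50 µg injected intraperitoneally, given 2 times a week) or with the combination of both at the same doses. TP-16, also named BY001 in the labels, is an antagonist of the prostaglandin E2 receptor EP4. The antibody blocks PD-1, which restrains T cells. Each group had 2 arrays from samples labelled as biological replicates, and all 8 arrays lay on 1 slide. Whether a sample was 1 tumor or a pool is not given in the sources used here. Whole tumors were measured, so fewer T cells and less RNA per T cell cannot be told apart. Arrays without the antibody lay in row 1 of the slide and those with it in row 2. Arrays without TP-16 lay in columns 1 and 2 and those with it in columns 3 and 4, so slide position and treatment cannot be told apart.

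The antigen-binding chains of the T-cell receptor have no signaling domains of their own. CD3 delta, epsilon and gamma and the zeta chain (the product of Cd247) carry the immunoreceptor tyrosine-based activation motif (ITAM). CD8, made of an alpha and a beta chain on conventional cytotoxic T cells, binds class I MHC, and CD4 on helper and regulatory T cells binds class II MHC. Both bring the kinase Lck to the receptor, Lck phosphorylates the motifs, and Zap70 binds them and passes the signal on. Several of these genes are not particular to T cells. NK cells also use Cd247, Lck and Zap70, a subset of mouse dendritic cells carries CD8 alpha, and many activated leukocytes carry CD69.

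The probes are 60 bases long, and their sequences show which part of each transcript was read. A stretch of a probe for Cd3d and of a probe for Cd247 encodes, in an open reading frame, the spacing of the motif (a tyrosine, 2 residues, leucine or isoleucine, 6 to 8 residues and the next tyrosine). Both probes are shown whole, with that stretch in capitals, because the first followed Cd3e and Cd3g and the second was too dim to test.
Cd3d, probe A_51_P285206: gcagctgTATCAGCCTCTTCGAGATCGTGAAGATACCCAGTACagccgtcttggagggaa
Cd247, probe A_52_P173555: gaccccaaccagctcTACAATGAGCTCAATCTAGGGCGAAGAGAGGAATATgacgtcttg

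The array annotation, in the mm9 build, places the Cd3d probe at chr9:44794171-44794402 on the plus strand and the Cd247 probe at chr1:167786567-167787585 on the plus strand. Both spans are longer than the probes. For Cd8b1, Cd4 and the bright probe of Cd247, which carry the contrast between the coreceptors and the zeta chain below, the first 30 bases are shown. The whole probes lie at chr6:71286937-71286996 (plus strand), chr6:124814711-124814770 (minus strand) and chr1:167791567-167791626 (plus strand).
Cd8b1, probe A_66_P122499: gaactcccacaccaccatgtactcttcttg
Cd4, probe A_55_P2013655: gcccactccccactcctgcttcctgagctg
Cd247, probe A_55_P2487460: taggtactgtgtgtattgttctatgggtat

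Levels are log2 intensities minus the 75th percentile of the array, so 0 is the brightness of that percentile. A level is compared only between arrays for the same probe. Where a gene had several tested probes, the brightest is given first. A gene was called changed if its fold was at least 2 and its limma p, adjusted by Benjamini-Hochberg over all tested probes, did not exceed 0.05. The threshold of the methods, with the same fold and an unadjusted p up to 0.05, is given beside it.

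Levels of the delta, epsilon and gamma chains of CD3 were lowest on vehicle replicate 1 and highest on the combination arrays. Cd3d measured -1.13 and 1.61 on vehicle replicates 1 and 2, 2.36 and 2.07 under TP-16, 2.51 and 1.99 under anti-PD-1, and 2.60 and 3.42 under the combination. Both combination arrays lay above all others, TP-16 and anti-PD-1 overlapped, and the vehicle arrays lay 2.74 log2 units apart. Combination minus vehicle was 2.77 (SE 0.857, 95% interval 0.66 to 4.88, n = 2 arrays each), with a limma adjusted p of 0.055, so Cd3d was not called. Its second tested probe, the one with the motif, gave 2.89 (SE 0.923, limma adjusted p of 0.0597), and the levels of both probes correlated over the 8 arrays at r = 1.00.

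Cd3e encodes the epsilon chain, which pairs with both delta and gamma. It measured 0.15 and 1.36 under vehicle, 2.08 and 1.84 under TP-16, 1.98 and 1.66 under anti-PD-1, and 2.24 and 2.89 under the combination. It rose by 1.81 under the combination (SE 0.428, 95% interval 0.76 to 2.86), a fold of 3.51 with a limma adjusted p of 0.0273. Its other probe rose by 1.26 (SE 0.27, limma adjusted p of 0.0216). Cd3g, for the gamma chain, measured -2.06 and 1.12 under vehicle, 1.84 and 1.36 under TP-16, 1.69 and 1.39 under anti-PD-1, and 2.02 and 2.71 under the combination. Vehicle was again lowest and the combination highest, and combination minus vehicle was 2.83 (SE 0.97, limma adjusted p of 0.0709).

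The zeta chain gene Cd247 did not follow the other chains. Its bright probe measured 1.85 and 1.82 under vehicle, 1.38 and 1.29 under TP-16, 1.81 and 1.76 under anti-PD-1, and 1.39 and 1.75 under the combination. TP-16 minus vehicle was -0.50 (SE 0.144, 95% interval -0.86 to -0.14, limma unadjusted p of 0.0139 and adjusted p of 0.117), and combination minus vehicle was -0.27 (95% interval -0.63 to 0.08, limma adjusted p of 0.193). Cd247 was the 1 of the 10 genes with both anti-PD-1 arrays on one side of vehicle and both combination arrays on the opposite side of TP-16, beside 3.94% of all tested genes. The 3 other Cd247 probes were too dim to test, being well above background on 2, 0 and 1 of the 8 arrays. The dim probe with the motif measured -6.30 and -3.01 under vehicle, -5.58 and -5.48 under TP-16, -5.58 and -6.50 under anti-PD-1, and -4.70 and -3.56 under the combination. It was well above background only on vehicle replicate 2 and combination replicate 2, so the Cd247 probes gave no common pattern.

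**Figure D1:**
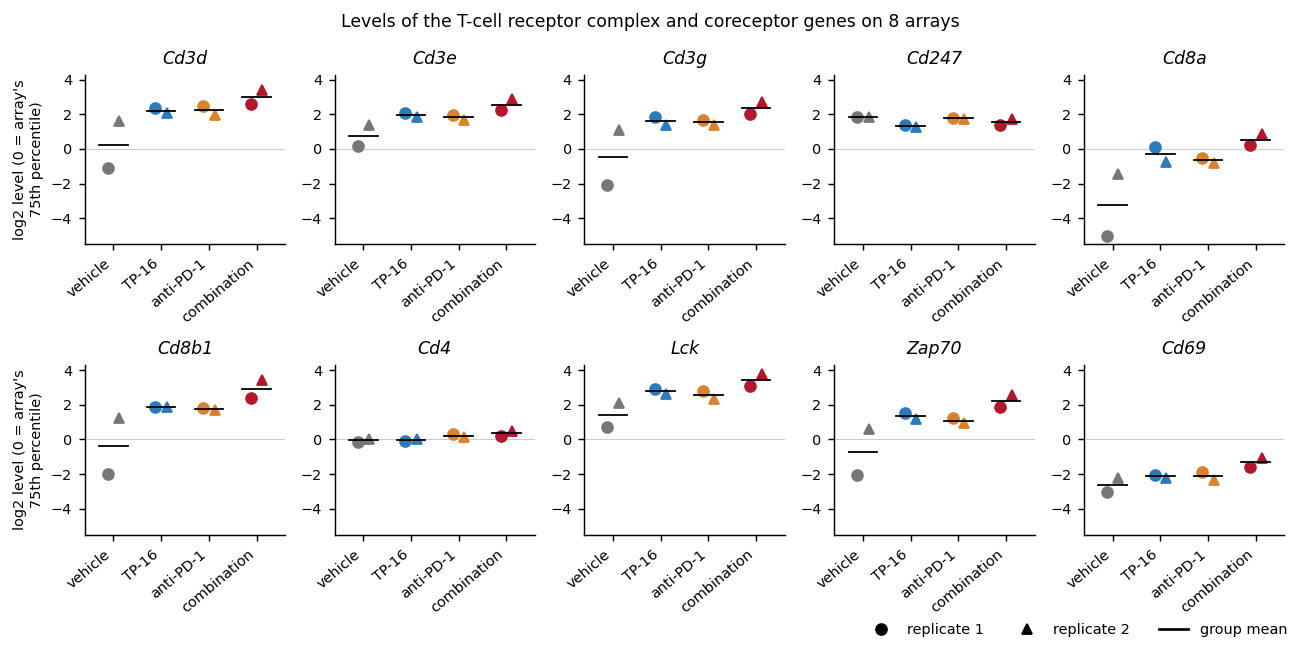
Log2 level of the brightest tested probe of each gene (vertical axis, 0 is the 75th percentile of the array) in the 4 groups, with replicate 1 as a circle, replicate 2 as a triangle and the mean of the 2 arrays as a bar. Vehicle replicate 1 is the lowest array for 9 of the 10 genes, and the combination arrays are the 2 highest for 8 of them, whereas Cd4 and Cd247 stay within narrow ranges.

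Both chains of CD8 were low on vehicle replicate 1 and highest under the combination. Cd8a, for the alpha chain, measured -5.02 and -1.43 under vehicle, 0.12 and -0.74 under TP-16, -0.50 and -0.79 under anti-PD-1, and 0.21 and 0.86 under the combination. On vehicle replicate 1 neither of its probes was well above background, so only 1 of the 2 vehicle arrays measured the gene, and the vehicle mean holds a level not well above background. With that level as it stands, Cd8a rose by 3.76 under the combination (SE 1.1, 95% interval 1.05 to 6.47), a fold of 13.6 with a limma adjusted p of 0.0477, and the second probe rose by 3.17 (SE 0.764, limma adjusted p of 0.0288). Cd8b1, for the beta chain, measured -2.01 and 1.25 under vehicle, 1.87 and 1.89 under TP-16, 1.81 and 1.73 under anti-PD-1, and 2.40 and 3.42 under the combination. Combination minus vehicle was 3.29 for Cd8b1 (SE 1, 95% interval 0.83 to 5.76, limma adjusted p of 0.0524), which missed the threshold.

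Cd4 stayed within a narrow range. It measured -0.16 and 0.04 under vehicle, -0.06 and 0.00 under TP-16, 0.30 and 0.16 under anti-PD-1, and 0.19 and 0.51 under the combination. The combination and anti-PD-1 arrays lay above the vehicle arrays, TP-16 overlapped vehicle, and the combination overlapped anti-PD-1. Combination minus vehicle was 0.41 (SE 0.152, 95% interval 0.03 to 0.78, limma unadjusted p of 0.0373 and adjusted p of 0.0881), and the upper end of the interval lies below a fold of 2. The other 2 Cd4 probes were too dim to test and were well above background on 0 and 3 arrays, so the gene rests on 1 probe.

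Of the kinases, Lck measured 0.70 and 2.09 under vehicle, 2.91 and 2.65 under TP-16, 2.82 and 2.36 under anti-PD-1, and 3.09 and 3.77 under the combination. It rose by 2.03 under the combination (SE 0.487, 95% interval 0.83 to 3.23), a fold of 4.09 with a limma adjusted p of 0.0283. Zap70 measured -2.03 and 0.58 under vehicle, 1.51 and 1.17 under TP-16, 1.25 and 0.93 under anti-PD-1, and 1.87 and 2.58 under the combination. It rose by 2.95 (SE 0.808, 95% interval 0.96 to 4.94), a fold of 7.73 with a limma adjusted p of 0.04. The second probe of Zap70 rose by 2.82 (limma adjusted p of 0.034). The second probe of Lck rose by 2.05 (limma adjusted p of 0.0297), but it was not well above background on vehicle replicate 1.

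Cd69, which appears on lymphocytes soon after activation, moved least among the called genes. It measured -3.05 and -2.23 under vehicle, -2.05 and -2.22 under TP-16, -1.91 and -2.37 under anti-PD-1, and -1.56 and -1.08 under the combination. The combination arrays lay above all 6 others, whereas the anti-PD-1 arrays overlapped the vehicle arrays. Cd69 rose by 1.32 under the combination (SE 0.326, 95% interval 0.52 to 2.12, limma adjusted p of 0.0304).

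In the combination, 5 of the 10 genes were thus called higher (Cd3e, Cd8a, Lck, Zap70 and Cd69), beside 5.59% of all tested genes, and none was called lower, beside 8.62%. Counted by probe, 9 of their 15 tested probes were called higher, beside 5.08% of all tested probes. At the threshold of the methods, 8 of the 10 were higher, all but Cd247 and Cd4, beside 6.65% of all tested genes. The combination and vehicle arrays did not overlap, with the combination higher, for 9 genes, beside 23.2% of all genes, and both combination arrays lay above all 6 other arrays for 8 genes, beside 13.6%. The median of the 10 log2 fold changes was 2.40, beside -0.24 over all tested genes. With these values, 0 of the 10 genes passed that threshold in the methods' t-test, beside 2.71% of all tested genes, and after adjustment 0 of the 10 and 0% of all tested genes passed.

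Under each single agent 9 of the 10 genes had a higher mean than under vehicle, the exception being Cd247, but none was called after adjustment. Under TP-16, 0 of the 10 genes were called in limma, beside 0.00465% of all tested genes (1 gene). At an unadjusted p, Cd3e (1.21), Cd8a (2.92), Lck (1.38) and Zap70 (2.07) passed a fold of 2, beside 1.56% of all tested genes. The TP-16 arrays lay wholly above the vehicle arrays for 8 of the 10 genes, all but Cd247 and Cd4, beside 16.5%. The adjusted p in limma ran from 0.117 to 0.921, and the median log2 fold change was 1.68.

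Under anti-PD-1, 0 of the 10 genes were called in limma, beside 0.0279% of all tested genes. At an unadjusted p, Cd3e alone passed a fold of 2, with a log2 fold change of 1.07, beside 1.9% of all tested genes. The anti-PD-1 arrays lay wholly above the vehicle arrays for 8 genes, all but Cd247 and Cd69, beside 15.7%. The adjusted p in limma ran from 0.339 to 0.873, with a median log2 fold change of 1.51. TP-16 and anti-PD-1 arrays overlapped for 7 of the 10 genes and did not for Cd247, Cd8b1 and Cd4, which is 3 of 10 beside 45.2% of all tested genes. All 3 comparisons share the vehicle arrays.

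**Figure D2:**
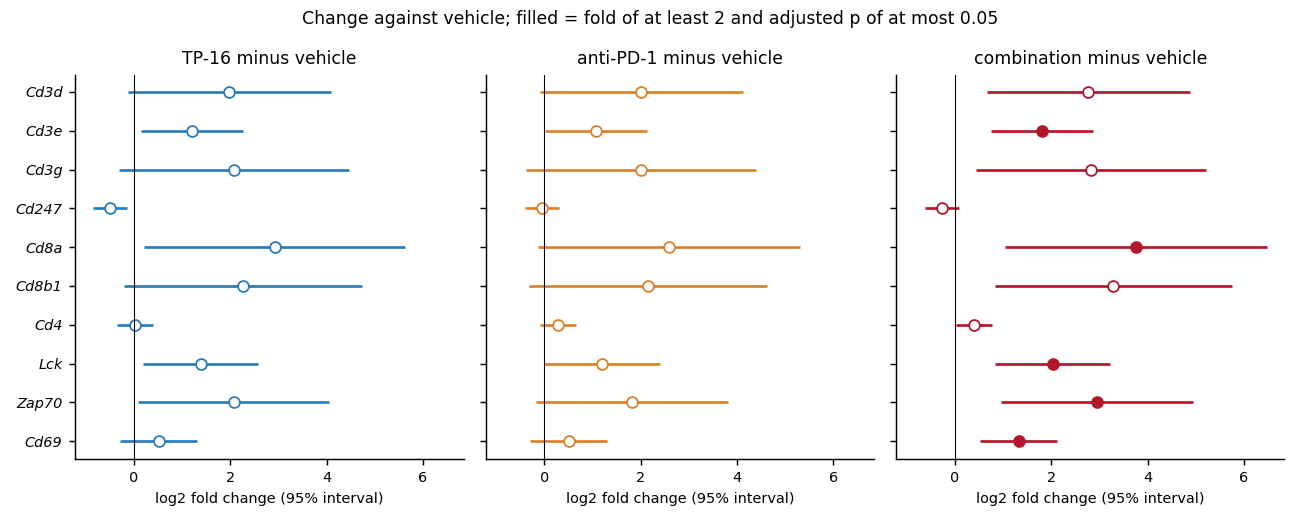
Log2 fold change against vehicle (horizontal axis) with its 95% interval from limma for each gene, in 1 panel per treatment, 2 arrays a group. Filled points have a fold of at least 2 and an adjusted p of at most 0.05, which holds for 5 genes under the combination and for 0 under either single agent.

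The combination was also compared with each agent alone. All 10 genes had a higher mean under the combination than under TP-16 (median 0.78) and 9 of 10 than under anti-PD-1 (median 0.82, with Cd247 at -0.22). These medians were 0.403 and 0.49 without combination replicate 2, and 1.08 and 1.167 without combination replicate 1. None was called in limma in either comparison, where 0% and 0% of all tested genes were called higher. At the threshold of the methods also 0 of the 10 passed, beside 4% and 2.39% of all tested genes. With no fold limit and an unadjusted p up to 0.05, Cd4 (0.38) and Cd69 (0.81) passed against TP-16, and Cd69 (0.82) passed against anti-PD-1, beside 9.36% and 8.06% of all tested genes that were higher at that p. The 95% intervals were wide, from -1.44 to 3.50 for Cd8b1 against TP-16 and from -1.54 to 3.89 for Cd8a against anti-PD-1.

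The departure from additivity, which is the log2 fold change of the combination less those of both single agents, ranged from -1.74 for Cd8a to 0.31 for Cd69. The Cd8a value includes vehicle replicate 1, where the gene was not well above background. In limma 0 of the 10 genes had an unadjusted p up to 0.05, beside 7% of all tested genes, and the adjusted p ran from 0.844 to 0.951. For Cd8a the 95% interval reached from -5.58 to 2.10. The direction turned with the vehicle array used. With both, 3 of the 10 genes lay above 0 and the median was -0.74. With vehicle replicate 1 left out all 10 lay above 0 with a median of 0.23, and 0 passed a fold of 2 at an unadjusted p up to 0.05, beside 5.29% of all tested genes above 0. With vehicle replicate 2 left out 1 of the 10 lay above 0, the median was -1.74, and 7 passed that threshold below 0, beside 2.17% of all tested genes.

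Much of the difference to vehicle rested on 1 array. Vehicle replicate 1 lay below all 7 other arrays for 9 of the 10 genes, all but Cd247, beside 15.2% of all tested genes. The gap to vehicle replicate 2 was 3.26 for Cd8b1, 3.18 for Cd3g, 2.74 for Cd3d and 2.61 for Zap70. For Cd8a it was 3.59 as measured, with replicate 1 not well above background. Of all tested genes, 2.01% lay at least 2 log2 units higher on vehicle replicate 2 than on replicate 1, and the median gap was 0.05.

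Without vehicle replicate 1, the calls in the combination were Cd3e, Cd8a, Cd8b1, Lck and Zap70, again 5 of the 10, beside 4.05% of all tested genes. Cd8a then rose by 1.96 in place of 3.76 and Zap70 by 1.64 in place of 2.95, whereas Cd69 was at 0.91 (limma adjusted p of 0.0744). The median log2 fold change of the 10 genes was then 1.29 in the combination, 0.60 under TP-16 and 0.48 under anti-PD-1, and under either single agent 0 of the 10 genes passed the threshold of the methods, beside 1.1% and 1.36% of all tested genes under TP-16 and anti-PD-1. Without vehicle replicate 2, 8 of the 10 were called in the combination, 5 under TP-16 and 5 under anti-PD-1, beside 6.44%, 0.726% and 0.754% of all tested genes. Without combination replicate 1, 0 of the 10 were called in the combination, beside 4.12% of all tested genes. Without combination replicate 2, 0 of the 10 and 0% of all tested genes were called.

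**Figure D3:**
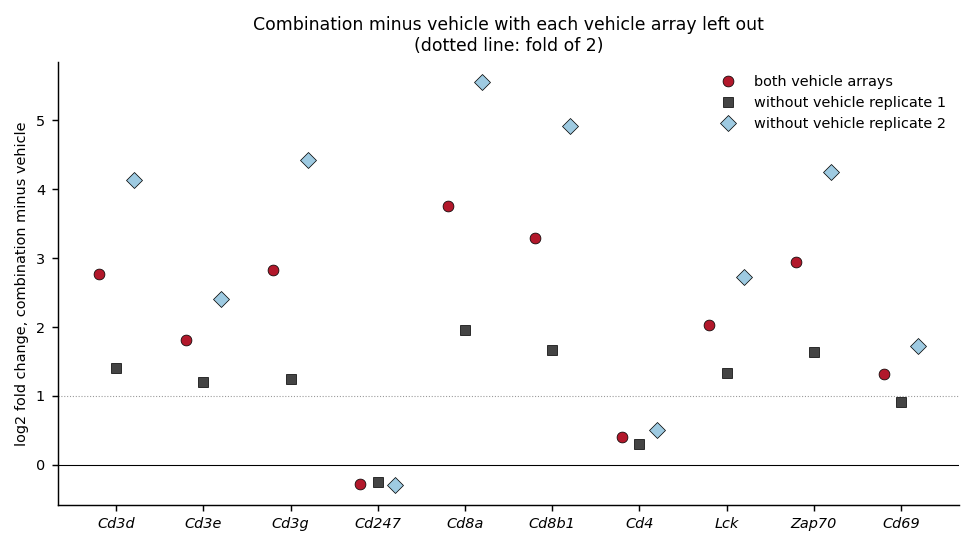
Log2 fold change of combination minus vehicle (vertical axis) for each gene with both vehicle arrays and with either one left out. The dotted line marks a fold of 2. With vehicle replicate 1 left out, Cd8a falls from 3.76 to 1.96, and all but Cd69, Cd4 and Cd247 stay above a fold of 2.

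The per-array levels of the genes were close to one another in pattern. Among the 8 genes other than Cd4 and Cd247, Pearson's r over the 8 arrays lay between 0.88 and 1.00. Cd4 correlated with those 8 at 0.68 to 0.85 and Cd247 at -0.44 to -0.23. These are descriptions over arrays of 4 treatments, with vehicle replicate 1 far from the rest.

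To compare CD8, CD4 and the shared signal, 3 values were formed per array. The CD8 signal is the mean of Cd8a and Cd8b1, the CD4 signal is Cd4, and the CD3 signal is the mean of Cd3d, Cd3e, Cd3g and Cd247. A difference between signals compares different probes and is no ratio of transcripts. A change of that difference shows unequal change of the probe signals, which need not be unequal change of the transcripts. Probes of 1 gene could also change unequally. Under TP-16 the Cd3e probes rose by 1.21 and 0.52, whereas those of Lck rose by 1.38 and 1.36. On vehicle replicate 1 the CD8 signal includes Cd8a, which was not well above background there. CD8 minus CD4 was -3.36 and -0.14 under vehicle, 1.06 and 0.57 under TP-16, 0.36 and 0.32 under anti-PD-1, and 1.12 and 1.63 under the combination. Every treated array lay above both vehicle arrays, and the 4 arrays with TP-16 lay above the 4 without.

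The 4 arrays with TP-16 averaged 1.09 ± 0.432 (SD, n = 4) for CD8 minus CD4 and the 4 without -0.70 ± 1.78 (SD, n = 4), a difference of 1.80. The two-sided exact permutation p was 0.0286, the smallest that 4 arrays against 4 allow, and 0.0857 adjusted over the 6 tests of this kind. The 4 arrays with TP-16 were also the brighter ones, with 75th percentiles of 530 to 734 against 371 to 415. For anti-PD-1 the difference was 1.32, with an exact permutation p of 0.257 and the same value adjusted. With Cd8b1 alone as the CD8 signal the differences were 1.62 and 1.26, with adjusted exact permutation p of 0.114 and 0.286. With vehicle replicate 1 left out they were 0.91 and 0.36, with adjusted exact permutation p of 0.171 and 0.514.

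The same was done for CD8 against CD3. CD8 minus CD3 was -3.22 and -1.57 under vehicle, -0.92 and -1.07 under TP-16, -1.34 and -1.23 under anti-PD-1, and -0.75 and -0.55 under the combination. The 4 arrays with TP-16 lay above the 4 without by 1.02 on average (exact permutation p of 0.0286, adjusted 0.0857), and with anti-PD-1 the difference was 0.73 (exact permutation p of 0.229, adjusted 0.257). These were 0.56 and 0.22 without vehicle replicate 1, and 0.611 and 0.445 with Cd247, which did not follow the other chains, left out of the CD3 signal.

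CD4 minus CD3 was 0.14 and -1.43 under vehicle, -1.98 and -1.64 under TP-16, -1.70 and -1.54 under anti-PD-1, and -1.87 and -2.18 under the combination. With TP-16 it differed by -0.78 (exact permutation p of 0.0571, adjusted 0.114) and with anti-PD-1 by -0.59 (exact permutation p of 0.257, adjusted 0.257). These were -0.36 and -0.14 without vehicle replicate 1, and -1.19 and -0.876 with Cd247 left out of the CD3 signal. With 4 arrays against 4, at most 3 of the 6 tests can reach the smallest p, so no adjusted value below 0.0571 was possible and the adjusted values could not pass 0.05.

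**Figure D4:**
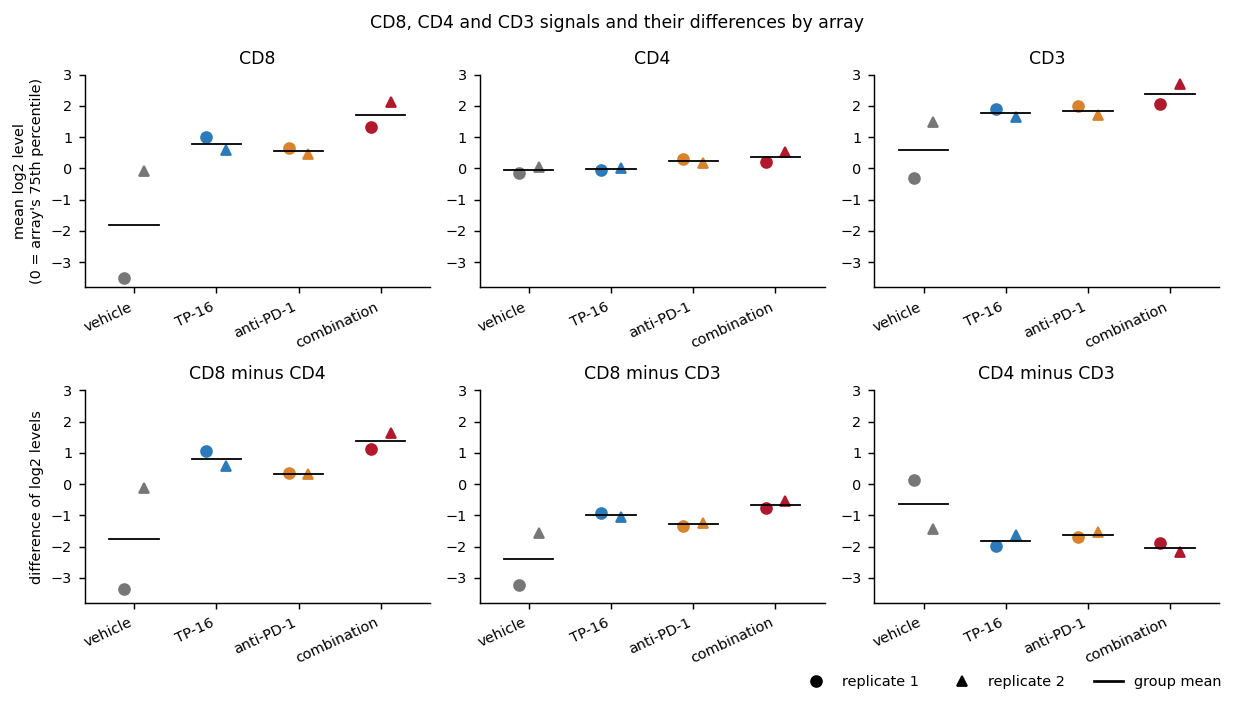
The CD8, CD4 and CD3 signals (upper row, mean log2 level) and their differences (lower row) by group, with replicate 1 as a circle, replicate 2 as a triangle and group means as bars. CD8 minus CD4 runs from -3.36 on vehicle replicate 1 to 1.63 on combination replicate 2, and the Cd4 level itself from -0.16 to 0.51.

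Of 26 other tested genes of proximal signaling (kinases, adaptors, effectors, the phosphatase gene Ptprc and the surface receptors Cd2 and Cd28), 15 were called higher under the combination and 0 lower, beside 5.59% and 8.62% of all tested genes. These shares also stand beside the counts of the lists that follow. The median of the 26 was 1.48, beside -0.24 over all tested genes. Themis, a regulator of T-cell receptor signaling in the thymus, was at least 2.67-fold higher, since neither vehicle array was well above background. Its limma adjusted p of 0.0105 belongs to the change as measured, 3.74, which uses those dim vehicle levels, and is no test of the bound. Cd2, an adhesion receptor, rose by 3.20, the protein kinase C theta gene Prkcq by 2.49, Skap1 by 2.46 and the costimulatory receptor Cd28 by 2.44 (limma adjusted p of 0.0139, 0.014, 0.0418 and 0.0177). The adaptor Lat, at 2.00, missed the threshold (limma adjusted p of 0.0726), and Plcg1 (0.14), Nck1 (0.00) and Bcl10 (-0.34) were not called. The count was 9 of 26 without vehicle replicate 1, beside 4.05% of all tested genes. Without combination replicate 2 it was 0, here and in each list that follows, as it was over all tested genes. Under TP-16 and anti-PD-1 alone 0 of the 26 were called, with medians of 0.60 and 0.58.

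Of 18 tested inhibitors of receptor signaling, 6 were called higher and 0 lower, with a median of 0.93. They were Cd5 (3.19), Cd6 (3.10), the ubiquitin ligase gene Cblb (1.47), Ubash3b (1.39), the diacylglycerol kinase gene Dgka (1.36) and the phosphatase gene Ptpn6 (1.20). Of 16 tested genes that receptor signaling is known to induce, 6 were called higher, with a median of 0.22. The costimulatory receptor gene Icos rose by 3.12, Tbx21, for the transcription factor T-bet, by 2.90 and the chemokine gene Xcl1 by 1.56. Irf4 was at least 4.8-fold higher than in vehicle, where it was not well above background. The immediate early genes Egr1 (-0.26), Nr4a1 (-0.05) and Myc (-0.30) were not called. Nr4a3, of the same kind, was at -0.89 (limma adjusted p of 0.0216), short of a fold of 2. Medians of the 18 inhibitors and 16 induced genes were 0.667 and 0.268 without vehicle replicate 1, where fewer of both were called higher. Without combination replicate 1 they were 1.32 and 0.124, with fewer induced genes called higher. Without vehicle replicate 2 they were 1.293 and 0.237.

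Of the antigen-binding chains, 11 names were on the array and 2 were bright enough to test. Tcrg-V1 fell by 1.46 (limma adjusted p of 0.0422), a call that was lost on leaving out any one of the vehicle, anti-PD-1 or combination arrays, and Trav6-3 was at 0.21 (limma adjusted p of 0.669). The other 9 names, among them Tcra and Tcrb-J, were not bright enough to test.

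Of 3 further T-cell markers on the array (Cd2, Cd5 and Cd28, which also stand in the lists above), all 3 were called higher under the combination, and all 3 were called without vehicle replicate 1 and 0 without combination replicate 2. Of 7 tested NK cell markers, 2 were called higher (Klra8, 1.98, and Klrb1c, 1.77), with a median of 1.77. The count was 0 without vehicle replicate 1, either TP-16 array or either combination array, and 7 without vehicle replicate 2. The linear levels of the NK markers, each relative to the 75th percentile, summed to 1.75 and 7.08 under vehicle, 10.3 and 7.82 under TP-16, 9.98 and 7.05 under anti-PD-1, and 11.7 and 18.6 under the combination. S1pr5 was not bright enough to test.

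Of 8 dendritic cell markers, 5 were called higher. Flt3 rose by 2.96, Batf3 by 1.94 and Itgax by 1.61, and Clec9a and Zbtb46 were at least 8.81-fold and 2.31-fold higher than in vehicle, where neither was well above background. The sum of their levels, most of it Siglech, which was not called (-0.74), was 47.8 to 65.5 under vehicle, 29.2 to 43.4 under TP-16, 46.5 to 51.5 under anti-PD-1 and 35.1 to 44.8 under the combination. Of 7 tested macrophage markers, 4 were called higher (Adgre1, 2.06, Cd68, 1.13, C1qb, 1.03, and C1qa, 1.01). Csf1r (0.936), C1qc (0.725) and Mrc1 (-0.211) were not called, and of the 7 only Mrc1 lay below vehicle. The sum of the 7 was 143.6 to 193.1 under vehicle, 187.6 to 204.4 under TP-16, 171.2 to 210.9 under anti-PD-1 and 263.5 to 376.6 under the combination. The pan-leukocyte gene Ptprc rose by 1.88 (limma adjusted p of 0.0116). Without vehicle replicate 1, 4 of the 8 dendritic and 1 of the 7 macrophage markers were called, without combination replicate 1 3 and 4, and without combination replicate 2 0 and 0. Leaving out either TP-16 or either anti-PD-1 array left 2 of the macrophage markers called. The part of these cells in the levels of the 10 genes was not tested.

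Regulatory T-cell markers did not move together. Tnfrsf18 rose by 1.63, Ikzf2 by 1.59 and Il2ra by 1.44, whereas Foxp3, the factor that defines these cells, was at -0.21 (limma adjusted p of 0.57) and Ccr8 at 0.51. The summed level of the 5 markers was 0.93 and 2.07 under vehicle and 3.12 and 3.90 under the combination. Only 1 of the 5 was called without vehicle replicate 1 or without any one of the single-agent arrays, and 0 without either combination array. B-cell markers Ms4a1 and Cd79a were called lower, by 2.50 on the log2 scale for Ms4a1 and at least 2.27-fold for Cd79a, which was not well above background under the combination, and Cd79b, at 1.83, was not called (limma adjusted p of 0.119). The sum of these 3 was 0.72 and 1.27 under vehicle and 1.31 and 1.73 under the combination.

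Of the epithelial markers, Krt18 fell by 1.39 and Cdx2, an intestinal transcription factor, was at least 6.9-fold lower, so 2 of 4 tested markers were called. Cdx2 was well above background on 4 of the 8 arrays and passed the filter for testing only through vehicle, where it was highest. Krt8, at -2.69 (limma adjusted p of 0.0525), and Cdh1, at 0.82 (limma adjusted p of 0.22), were not called, and Epcam and Vil1 were not bright enough to test on any group. The median of the 4, -2.04 with all arrays, was -1.57 without vehicle replicate 1 and -1.65 without combination replicate 2, with fewer called in either. The summed level of the 4, most of it Krt18, was 9.19 to 13.4 under vehicle, 6.98 to 8.92 under TP-16, 7.42 to 8.05 under anti-PD-1 and 3.41 to 5.14 under the combination. Of the skeletal muscle, skin and fat markers, 0 of 6, 0 of 3 and 0 of 4 were called with all arrays, with medians of 0.50, -1.61 and -0.12 in the combination. Dropping vehicle replicate 1 moved these medians to -0.265, -2.646 and -0.732. When vehicle replicate 2 was dropped instead, they became 1.5, -0.577 and 0.547. For muscle and fat the sign of the median therefore depended on the vehicle array used. The skin sum was 27.6 on TP-16 replicate 2 and 28.02 on anti-PD-1 replicate 2, and between 1.93 and 4.71 on the other arrays. The muscle sum was 13.5 on vehicle replicate 1 and between 22.3 and 54.2 on the others. The part of these tissues in the results was not tested.

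**Figure D5:**
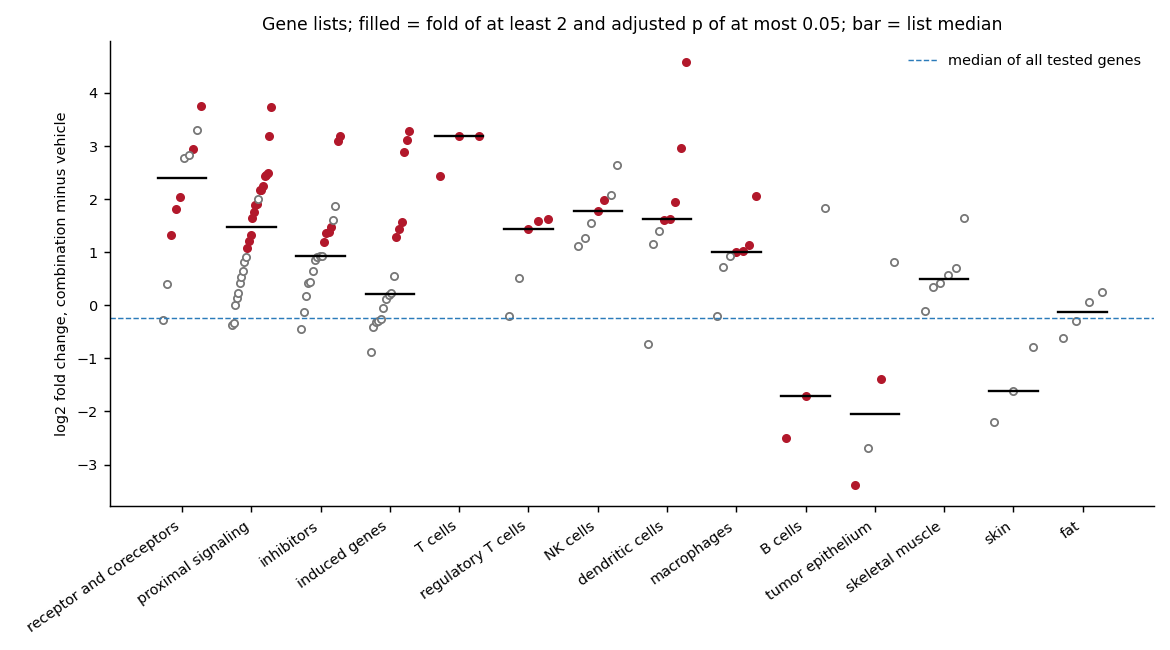
Log2 fold change of combination minus vehicle (vertical axis) for each tested gene of the receptor and coreceptor genes and of 13 gene lists (the antigen-binding chains are not drawn), with filled points for called genes, a bar at each list's median and a dashed line at the median of all tested genes (-0.24). Of the receptor and coreceptor genes 5 of 10 are filled, and of the proximal signaling genes 15 of 26.

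The genes outside the 10 whose levels ran closest to the CD3 signal over the 8 arrays were Clec12a, Gm8909, Klrd1, Nkg7, Pglyrp2, Tapbpl, Cd52 and Htr7, with Pearson's r of 0.994 to 0.997. Those closest to Cd4 were Lilrb4, Neurl2, Creg1, Gm9054, Ptafr, Tpsg1, Ctsd and an unnamed transcript on chromosome 10, with r of 0.970 to 0.994. None of these genes appeared in both lists. Under the combination Nkg7, a granule protein gene of cytotoxic cells, rose by 2.76 (limma adjusted p of 0.0385), and Ctsd, for the lysosomal protease cathepsin D, was at 0.41 (limma adjusted p of 0.0824).

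Promoter sequences were read for the genes that moved together and for Cd247. RefSeq windows of the GRCm38.p6 build, taken as the 150 bases before each start, were given for 7 of the 10 genes in 10 windows (Cd3d, Cd3e, Cd3g, Cd247, Cd8a, Lck and Zap70). Cd3g and Cd3d start 1355 bases apart and run in opposite directions. Their windows and that of Cd247 are shown 5′ to 3′ on the strand of the gene, with GGAA and its reverse complement TTCC in capitals, the core letters of ETS family sites. They lie at chr9:44980432-44980581 (minus strand), chr9:44981636-44981785 (plus strand) and chr1:165788531-165788680 (plus strand).
Cd3g: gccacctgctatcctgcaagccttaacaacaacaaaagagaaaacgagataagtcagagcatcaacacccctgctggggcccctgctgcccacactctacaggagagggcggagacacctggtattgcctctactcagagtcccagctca
Cd3d: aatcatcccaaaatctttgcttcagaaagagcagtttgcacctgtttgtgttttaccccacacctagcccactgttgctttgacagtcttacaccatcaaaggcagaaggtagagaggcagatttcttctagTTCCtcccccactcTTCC
Cd247: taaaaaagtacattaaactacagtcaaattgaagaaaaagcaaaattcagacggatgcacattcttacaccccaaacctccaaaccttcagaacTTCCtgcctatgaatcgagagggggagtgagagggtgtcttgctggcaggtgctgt

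The motifs were searched one by one and may overlap. On either strand, GGAA was in 8 of the 10 windows and 6 of the 7 genes, beside 80.8% of all 32851 windows of that length, and Cd3g was the gene without it. The E-box letters CANNTG, which read the same on both strands, were in 8 windows and all 7 genes, beside 47.7% of all windows. TATAAA was in 0 of the 10 windows beside 7.57%, and GGGCGG in 2 beside 28.6%. Cd247, whose level did not follow the others, held both GGAA and CANNTG, as Cd3d did.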

How the data were processed

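RNA of 8 CT26 tumor samples in 4 groups of 2 was hybridised to 1-colour Agilent mouse arrays, with groups taken from the labels. For the RNA extraction the methods name TRIzol and the labels a column kit. The authors deposited the scanner intensities, which Agilent Feature Extraction 10.7.1.1 had background-subtracted and detrended, and a table of log2 values from GeneSpring, used here as an alternative. The arrays were not saturated at any spot, and 51.4% to 59.7% of probes per array were well above background. The 75th percentile of intensity ran from 371 to 415 on arrays without TP-16 and from 530 to 734 on arrays with it. Array brightness and TP-16 can therefore not be told apart. The number of arrays limits the precision.

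Control spots and 959 spots marked as outliers were left out, with 38 probes that had no other spot, and the spots of a probe were averaged. From each log2 intensity the array's 75th percentile was subtracted, and a mean for each group was fitted with limma 3.58.1 (R 4.3.3), which left 4 residual degrees of freedom. A probe was tested if some group had it well above background on both of its arrays. P-values measure the spread between 2 samples a group. Genes were described by their brightest tested probe, under the array's gene names. Signal differences were tested by two-sided exact permutation over arrays, adjusted over 6 tests. The calculation was tested on simulated data.

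The 10 genes, the gene lists and the tests were chosen with earlier results of these data known. Named are the 10 genes, of each list at most the 5 called genes with the largest change in the combination and those needed to say what it holds, and the 8 genes most like the CD3 signal or Cd4. Bounds ("at least") set the brighter group's mean against, per array, the higher of the lowest signal well above background and the probe's own signal. The alternatives were another normalization or background correction, other probe filters, the authors' log2 values, a replicate block, other fits, the methods' t-test and each array left out. Of lists named by hand, Trac, Trbc1, Trbc2 and Emr1 were not matched by name, and 2 other list members are not reported here and enter no count.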

Additional observations from a re-analysis of the deposited data

Results flagged for a closer look

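Cd247 was marked because its arrays moved in opposite directions when the antibody was added to vehicle and to TP-16. Both anti-PD-1 arrays lay below both vehicle arrays, a difference of -0.056, and both combination arrays lay above both TP-16 arrays, a difference of 0.23. Each difference rests on 2 arrays a group. The closest combination and TP-16 arrays were at 1.387 and 1.383, and with 1 array left out the second difference ran from 0.049 to 0.41. Of all tested genes, 3.94% had such opposite, non-overlapping arrays. In limma, the departure from additivity for Cd247 was 0.29 (95% interval -0.22 to 0.79, adjusted p of 0.844).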

How the results depend on the processing

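The 5 of 10 genes called in the combination (5.59% of all tested genes called higher) became 3 with quantile normalization (7.42%), 3 with the authors' log2 values (7.44%), 3 with trended and robust moderation (5.77%) and 0 with dim probes kept (3.2%). It was 0 in a fit of the compared groups only and 0 with the methods' t-test after adjustment, and in both 0% of all tested genes were called. It became 7 with normexp background correction (3.82%; Cd3d, Cd3g and Cd8b1 gained, Cd69 lost) and 6 of the 9 genes left when probes had to be well above background on all arrays (5.44%). Counted over every tested probe, 9 of 15 probes were called, beside 5.08% of all tested probes. With 1 array left out the count ran from 0 to 8: it was 8 without vehicle replicate 2, 2 without either TP-16 array (4.87% of all tested genes), 1 without either anti-PD-1 array (4.41%) and 0 without either combination array. Under either single agent the count ran from 0 to 5, with 5 only without vehicle replicate 2. In a fit with the replicate number as a block, 5 genes were called in the combination (4.97% of all tested genes) and 0 in each other comparison, with Cd8b1 in place of Cd8a. Same-numbered samples deviated from their group means with correlations of -0.193 to 0.29. With 2 arrays a group, these values cannot decide whether the numbers pair the samples. In the 3 comparisons that lack vehicle or test additivity, 0 genes were called under every alternative run. At the unadjusted threshold of the methods, the counts against vehicle were 4 (TP-16), 1 (anti-PD-1) and 8 (combination) and ran from 0 to 7, 0 to 7 and 0 to 8 over the alternatives, where 0.312% to 4.13%, 0.386% to 4.3% and 2.71% to 9.5% of all tested genes were higher. The counts of 0 against TP-16, against anti-PD-1 and for additivity reached 1, 3 and 7, where up to 5.6% and 3.42% of all tested genes were higher and, for additivity, up to 2.17% lower. Cd4 changed sign in TP-16 minus vehicle without vehicle replicate 1 (-0.075, highest value 0.13 without vehicle replicate 2) and without TP-16 replicate 2 (-0.01), and in combination minus anti-PD-1 without combination replicate 2 (-0.036, highest value 0.282 without combination replicate 1). The median of all tested genes in the combination was -0.24 here and -0.05 with quantile normalization, and calls split as 1201 higher and 1852 lower against 1596 and 847. The differences between the CD8, CD4 and CD3 signals kept their direction under every alternative run, and their adjusted p, which could not pass 0.05 in this design, says nothing about stability. The alternatives included a CD3 signal without Cd247 and a CD8 signal without Cd8a, both chosen after seeing the data (for TP-16, CD8 minus CD3 was 0.61 and 0.84). The causes of these shifts were not tested.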
